A study of Rattus norvegicus with 164 samples.

Results

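The libraries described here are the myelin-rich and the myelin-poor ends of a set of prelimbic cortex RNA-seq libraries from heterogeneous stock rats, which descend from crosses among inbred strains and are kept outbred. They were selected on the level of Mobp, a small basic protein of compact central myelin. Levels are given throughout as log2(CPM + 1), where CPM are counts scaled to a sum of 1000000 per library. Of 130 libraries with values, 11 with Drd2 above 6 and 7 with Gad2 below 4.7 were left out, and the other 112 were ranked by Mobp. The 37 libraries with the most Mobp form the myelin-rich side and the 37 with the least form the myelin-poor side. The 38 between them are called the middle libraries. All groups are of the same kind: polyA RNA of prelimbic cortex, the part of the medial prefrontal cortex named in the labels, from outbred laboratory rats, with 1 library per identifier. No treatment, age, sex or dissection note is given in the labels used here. What the labels do give is the kind of animal identifier, which is all digits in some libraries and a code beginning with E21DCD in others.

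Myelin is the membrane that oligodendrocytes wrap around axons. It is built from a small set of very abundant proteins, Mbp among them, and from lipids rich in galactose and cholesterol. Oligodendrocytes arise from dividing precursors marked by Pdgfra, pass through a newly formed stage marked by Enpp6 and Bcas1, and then switch on the myelin genes under the transcription factors Sox10 and Myrf. In the cortex, myelin is densest in the deep layers and in the white matter beneath them. In bulk tissue, fewer cells of a type and less RNA per cell cannot be told apart.

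DNA words known as core binding sequences of these factors were looked up in the RefSeq promoters of the GRCr8 rat assembly, over the 250 bases before each gene's start and on both strands. These were ACAAAG, the core word of SOX factors, and CTGGCAC or CTGGTAC, the word bound by Myrf. Neither word contains the other. Of 27457 gene symbols with a promoter, 17.2% held the SOX word and 5.91% the Myrf word, and of the 12395 among the genes tested here 13% and 5.94% did. Among 16 mature myelin genes with a promoter, 7 (43.8%) held the SOX word, namely Cnp, Hapln2, Klk6, Mag, Mbp, Mobp and Opalin. The Myrf word was found in 6 (37.5%), namely Cldn11, Cnp, Hapln2, Mag, Mal and Opalin. In the list of myelin lipid genes 1 of 12 promoters (8.33%) held the SOX word and 2 (16.7%) the Myrf word, and among oligodendrocyte regulators 0 of 9 held the SOX word and 2 (22.2%) the Myrf word. These matches are descriptions of letters, not of binding. The 3 promoters below are shown because Mobp sorted the libraries and because Mag and Opalin hold both words. Each runs 5′ to 3′ along the gene's strand, with matches to either word, on either strand, in capitals. The Mobp stretch is chr8:128746982-128747231 on the plus strand, the Mag stretch chr1:95291045-95291294 on the minus strand and the Opalin stretch chr1:249858191-249858440 on the minus strand, all in GRCr8.
Mobp: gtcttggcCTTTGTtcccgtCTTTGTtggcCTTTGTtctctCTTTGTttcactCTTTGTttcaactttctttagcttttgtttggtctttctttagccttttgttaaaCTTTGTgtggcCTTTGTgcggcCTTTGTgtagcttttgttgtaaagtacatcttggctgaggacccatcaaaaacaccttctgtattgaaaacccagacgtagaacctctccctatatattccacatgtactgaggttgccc
Mag: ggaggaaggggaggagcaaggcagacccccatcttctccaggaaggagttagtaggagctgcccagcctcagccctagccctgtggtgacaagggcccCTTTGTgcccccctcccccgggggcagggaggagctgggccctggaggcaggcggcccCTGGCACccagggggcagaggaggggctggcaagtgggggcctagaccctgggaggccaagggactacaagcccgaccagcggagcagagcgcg
Opalin: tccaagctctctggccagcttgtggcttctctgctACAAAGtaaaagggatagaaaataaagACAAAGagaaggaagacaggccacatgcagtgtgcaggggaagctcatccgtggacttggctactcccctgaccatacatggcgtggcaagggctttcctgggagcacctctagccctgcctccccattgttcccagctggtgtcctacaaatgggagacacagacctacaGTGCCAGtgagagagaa
The Mobp stretch held 8 matches to the SOX word, all on the opposite strand, and none to the Myrf word. Mag held 1 match to each word, and Opalin held 2 to the SOX word and 1 to the Myrf word.

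By construction the sides do not overlap in Mobp, and its values are a description only. Mobp was 9.14 at the lowest, 9.53 at the median and 11.74 at the highest in myelin-rich libraries, and 6.79, 8.10 and 8.47 in myelin-poor libraries. The libraries just outside the cuts had 9.12 and 8.50, so the sides meet the middle libraries without a gap. The upper end of the myelin-rich side was long: 7 libraries, all with all-digit identifiers, ranged from 10.68 to 11.74, and the lowest 3 of the myelin-poor side, all with E21DCD codes, were at 6.79, 6.97 and 7.12. Drd2 was at 4.65 at most in the libraries kept and at least at 7.25 in those left out for Drd2. Gad2 was at least at 5.14 in those kept and at 4.27 at most in those left out for Gad2. The 11 libraries left out for Drd2 had Mobp of 10.79 to 11.82, and the 7 left out for Gad2 had 8.69 to 10.53.

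The other markers differed in the direction of the label. Mbp, which compacts the myelin membrane, was 10.80, 11.29 and 13.40 (lowest, median, highest) in myelin-rich libraries and 8.87, 9.80 and 10.36 in myelin-poor libraries. Mog, a surface protein of the outermost myelin layer, was 5.50, 5.90 and 7.79 in myelin-rich libraries and 3.53, 4.64 and 5.12 in myelin-poor libraries. Neither gene overlapped between the sides, and the middle libraries had medians between them, 10.60 for Mbp and 5.24 for Mog. The 20 mature myelin genes and Mobp together took 0.496% to 2.42% of all counts in myelin-rich libraries, with a median of 0.664%, and 0.154% to 0.374%, with a median of 0.271%, in myelin-poor libraries. Cortical neurons were present on both sides: Slc17a7, which loads glutamate into the vesicles of excitatory neurons, ranged from 10.43 to 11.20 in myelin-rich and from 10.50 to 10.98 in myelin-poor libraries.

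**Figure D1:**
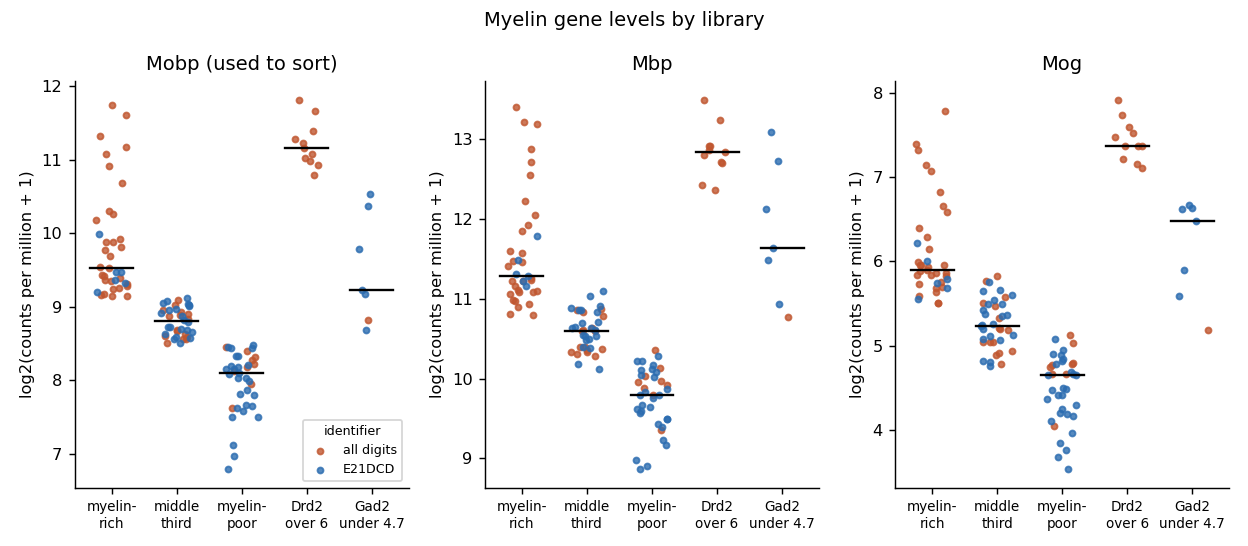
Levels of Mobp, Mbp and Mog on the log2(CPM + 1) scale in each library of the myelin-rich side, the middle libraries, the myelin-poor side and the libraries left out for Drd2 or Gad2. Points are libraries coloured by identifier kind and black lines are medians; the myelin-rich medians of 11.29 for Mbp and 5.90 for Mog lie above all myelin-poor libraries.

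The sides differed in more than myelin. Of the myelin-rich libraries 31 of 37 had an all-digit identifier and 6 an E21DCD code, against 9 and 28 of the 37 myelin-poor libraries (Fisher's exact test, two-sided, p = 4.467e-07). For 5 of those 28 the labels mention an original label before the fix of a genotype mismatch. Summed counts, in units of 1000000, were 16.9 to 54.5 with a median of 26.0 in myelin-rich libraries and 18.9 to 37.2 with a median of 25.1 in myelin-poor libraries (mean difference 5.24, two-sided permutation test, p = 0.0071). Genes above 0 numbered 24529 at the median in myelin-rich and 24160 in myelin-poor libraries (permutation p = 0.0229). Gad2, an enzyme of GABA synthesis whose lower limit was part of the rule, was 5.14, 6.04 and 6.36 in myelin-rich libraries and 5.90, 6.32 and 6.52 in myelin-poor libraries. Xist, which is high in females, exceeded 5 in 18 of 37 myelin-rich and 20 of 37 myelin-poor libraries (Fisher's exact test, p = 0.816). Because of these differences, results are also given with identifier kind and Gad2 as covariates, called below the fit with both covariates. For all genes and for some lists they are given inside each identifier kind as well.

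Across the other 15147 genes tested, the sides differed widely. With limma, 4074 genes (26.9%) were higher and 3822 (25.2%) lower in myelin-rich libraries at a Benjamini-Hochberg adjusted p under 0.05, with a median difference over all genes of 0.00. Counts of called genes in the lists below are to be read beside these shares. Large differences were nearly all rises: 251 genes differed by 0.5 or more and 53 by 1.0 or more, against 24 by -0.5 or less and none by -1.0 or less. With identifier kind as a covariate 3229 genes (21.3%) were higher and 2899 (19.1%) lower, and with both covariates 545 (3.6%) were higher and 42 (0.277%) lower. Of the 4074 higher genes 529 were also called with both covariates, and of the 3822 lower genes 37 were. In 38 genes (0.251%) every myelin-rich library lay above every myelin-poor library, and in 0 genes (0.0%) the reverse held. Since the libraries were sorted on an oligodendrocyte gene, calls of other oligodendrocyte genes show that they move with it and are not independent evidence of a difference between rats.

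Mature myelin genes had the largest median of all the lists. All 20 tested members were higher in myelin-rich libraries, with a median difference of 1.52, and in 14 of them the sides did not overlap. Mbp was higher by 1.83 ± 0.13 (SE, 37 against 37 libraries; limma adjusted p = 3.83e-20), which is 3.56-fold on this scale. Mog was higher by 1.63 ± 0.11 and Mag, an adhesion protein facing the axon, by 1.59 ± 0.11. Of similar size were Klk6, a secreted protease of oligodendrocytes, at 1.60, Cldn11, the tight junction protein of myelin, at 1.59, and Mal, a raft proteolipid, at 1.58. The cytoskeletal Anln differed by 1.53, Opalin by 1.52, the cytoskeletal Ermn by 1.51 and Hapln2, a link protein of the node matrix, by 1.47. Outside the list, Tf, the iron carrier transferrin, which oligodendrocytes make in the brain, differed by 1.53, and the glycosyltransferase gene Galnt6 by 1.44. At the low end of the list was Omg, a myelin glycoprotein that neurons make as well, at 0.11 ± 0.03 (adjusted p = 0.000157). With both covariates 19 of the 20 were still called, with a median of 1.18, and Omg at 0.06 was the one that was not (adjusted p = 0.449).

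Next came a list of myelin lipid genes, which also holds members that make no lipid, such as the connexin gene Gjc3 and the kinase gene Sgk1. All 13 tested members were higher, with a median of 0.78, and 11 were with both covariates (median 0.55). Ugt8, which makes galactosylceramide, the main galactolipid of myelin, was 5.51, 5.96 and 7.62 in myelin-rich and 3.88, 4.73 and 5.31 in myelin-poor libraries. Its difference was 1.41 ± 0.09 (limma adjusted p = 1.72e-21), and the sides did not overlap. Fa2h, which hydroxylates the fatty acids of these lipids, was higher by 1.37, Gjc3 by 1.37 and Gal3st1, the sulfatide-making enzyme, by 0.84.
In the cholesterol pathway 13 of 21 genes were higher and 1 lower, with a median of 0.10, and 0 in either direction with both covariates (median 0.01). Cyp51, an enzyme of the late pathway, differed by 0.26 ± 0.04 (adjusted p = 2.23e-08). Mvk was higher by 0.17 and Pmvk by 0.15, while Hmgcs1, at 0.06, did not pass (adjusted p = 0.0696).

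Transcription factors and other regulators of oligodendrocytes were higher in 13 of 14 tested genes, with a median of 0.75, and in 11 with both covariates (median 0.57). Sox10, the factor that defines the lineage, was 5.25, 5.67 and 7.10 in myelin-rich and 4.44, 4.89 and 5.27 in myelin-poor libraries, overlapping by a narrow margin, with a difference of 0.87 ± 0.07 (limma adjusted p = 2.57e-17). Nkx6-2 had a larger difference of 1.47 ± 0.10, and Olig1 and Olig2, present throughout the lineage, had 0.82 and 0.65. Myrf, named here because its word was searched for, was higher by 1.10 ± 0.09 (adjusted p = 5.29e-18).

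Medians were smaller for earlier stages of the lineage, although a difference between the stages was not tested. Of 13 genes of newly formed oligodendrocytes 12 were higher, with a median of 0.29, and 7 with both covariates (median 0.19). Bcas1 was higher by 1.39 ± 0.11 and its sides did not overlap, and Enpp6 was higher by 1.18 ± 0.09. Gpr17, a receptor of cells committed to differentiate, differed by 0.38 ± 0.05 and Itpr2 by 0.21 ± 0.06. Of 16 precursor genes 10 were higher and 2 lower, with a median of 0.13, and 0 were called in either direction with both covariates, where the median was 0.14. Pdgfra, the growth factor receptor that marks precursors, was 5.90, 6.25 and 6.82 in myelin-rich and 5.93, 6.17 and 6.43 in myelin-poor libraries. Its sides overlapped almost wholly, and it differed by 0.13 ± 0.04 (limma adjusted p = 0.00234). Cspg4 differed by 0.19, Gpr37l1 by 0.28, Cspg5 by 0.06 and C1ql1, the largest of the list, by 0.39, while Tnr, a matrix protein, was lower by 0.28 on the log2 scale (adjusted p = 3.75e-06).

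**Figure D2:**
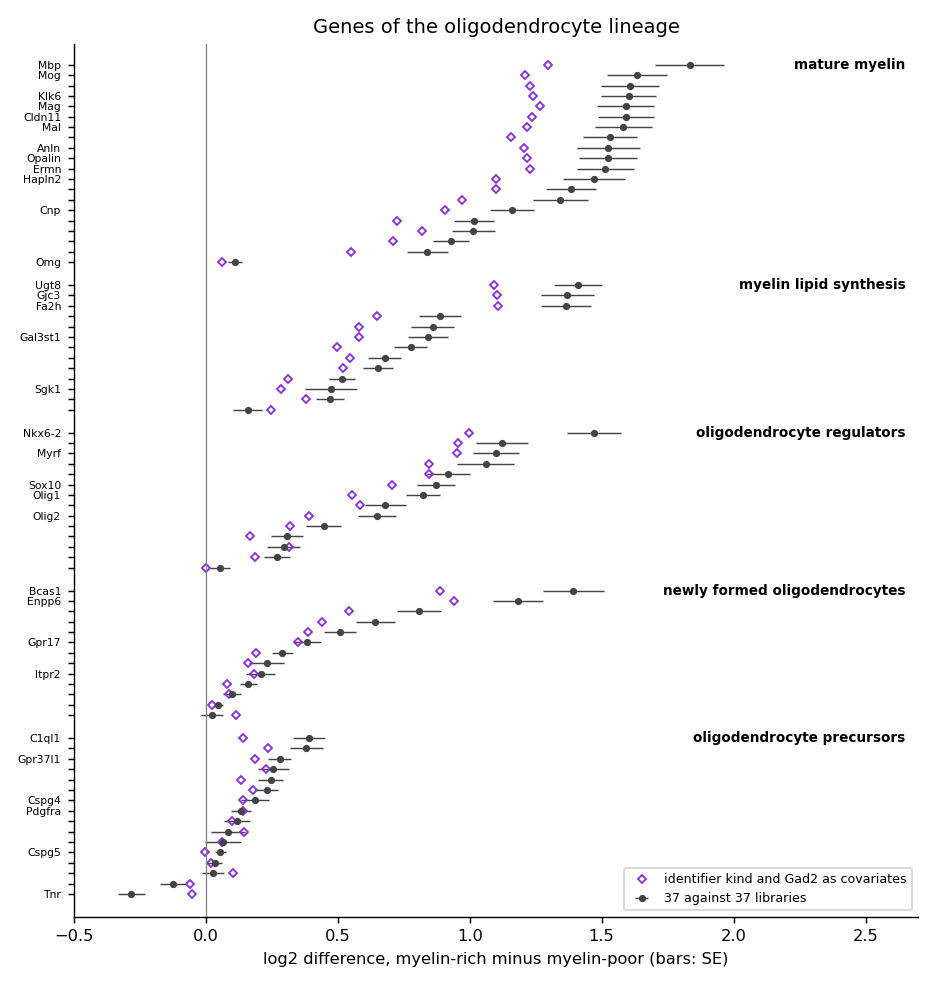
Log2 difference, myelin-rich minus myelin-poor, for each tested gene of 5 lists of the oligodendrocyte lineage, sorted within a list and with the genes described in the text labelled, with SE bars (37 against 37 libraries, black) and with identifier kind and Gad2 as covariates (open diamonds). Most mature myelin genes lie beyond 1.0 in both, and precursor genes lie between -0.28 and 0.39.

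At the contacts of myelin and axon, 4 of 16 genes were higher and 9 lower, with a median of -0.14. Over all genes tested 26.9% were higher and 25.2% lower. Cntn2, an adhesion protein beside the paranode that oligodendrocytes make as well as neurons, was higher by 0.59 ± 0.07 (limma adjusted p = 3.53e-11), also with both covariates at 0.54 (adjusted p = 6.87e-05). Its axonal partner Cntnap2 was lower, at -0.34 ± 0.05, as was Cntn1 at -0.18, but neither passed with both covariates (-0.12, adjusted p = 0.192, and -0.05, adjusted p = 0.545). Cntnap1, the axonal protein of the paranode, was at 0.01 ± 0.04 (adjusted p = 0.807). Of 15 neurofilament and axon genes 4 were higher and 4 lower, near the shares over all genes, and 0 were called with both covariates. Nefl at 0.06 and Nefm at 0.12 did not pass, Nefh was higher by 0.23, Prph by 0.25, and Ina at -0.14 and Map1b at -0.32 were lower.

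The sides were then compared inside each identifier kind, 2 comparisons that share no library. Among all-digit libraries, 31 against 9, limma called 1503 genes (9.92%) higher and 1272 (8.4%) lower, and among E21DCD libraries, 6 against 28, it called 2644 (17.5%) higher and 2080 (13.7%) lower. Median-of-ratios scaling gave 1440 higher and 1478 lower genes among all-digit libraries and 1998 and 2514 among E21DCD libraries, and in the comparison of all 74 libraries 3853 and 4185. In all of these it turns round which direction has more calls. Mature myelin genes were higher in 20 of 20 all-digit comparisons (median 1.37) and in 19 of 20 E21DCD comparisons (median 1.39). Mbp differed by 1.69 ± 0.25 in all-digit libraries (adjusted p = 2.2e-05) and by 1.68 ± 0.16 in E21DCD libraries (adjusted p = 9.12e-10), and Mog by 1.44 and 1.42. Of the 1503 genes higher among all-digit libraries 1427 (94.9%) had the same sign among E21DCD libraries, where 55% of all genes were positive, and of the 1272 lower genes 1192 (93.7%) did, where 45% were negative. Both kinds called 889 genes higher, which is 59.1% of the all-digit and 33.6% of the E21DCD calls, and 776 lower, which is 61% and 37.3%. The difference between the kinds was itself called in 4 genes (0.0264%), none of them a member of the lineage lists.

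The slope of each gene on Mobp was also fitted among the 38 middle libraries, which are on neither side and where Mobp spans only 8.50 to 9.12. These libraries were bounded by the same ranking and the slope is on Mobp itself, so it describes which genes move with Mobp in other libraries and is no test free of the sort. Here limma called 102 genes (0.673%) rising and 2 (0.0132%) falling with Mobp, and 101 of the 102 were among the 4074 higher genes. Mature myelin genes rose in 16 of 20 cases, with a median slope of 1.10 log2 units per log2 unit of Mobp. The slope was 1.13 ± 0.10 for Mbp (SE, 38 libraries; adjusted p = 1.07e-10), 1.27 ± 0.15 for Mog and 1.53 ± 0.21 for Mag. Lipid genes rose in 6 of 13 cases (median 0.48), regulators in 7 of 14 (median 0.67), newly formed stage genes in 1 of 13 (median 0.33) and precursor genes in 0 of 16 (median 0.09). The median slope over all genes was -0.03.
Of the 4074 higher genes 46.4% had a positive slope, where 43.3% of all genes did, and of the 3822 lower genes 51.8% had a negative slope, where 56.7% of all genes did. Of the 545 genes called higher with both covariates, 89% had a positive slope. The narrow range of Mobp in the middle libraries limits the precision of these slopes.

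**Figure D3:**
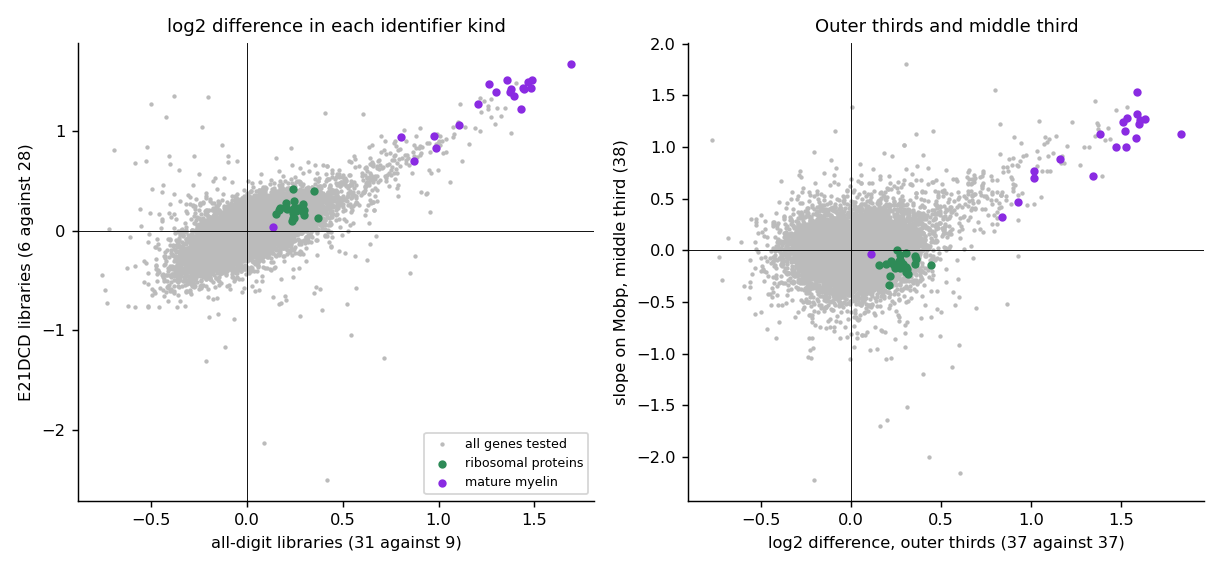
Left, log2 difference between the myelin-rich and myelin-poor sides among E21DCD libraries (vertical) against that among all-digit libraries (horizontal). Right, slope on Mobp in the middle libraries (vertical) against the log2 difference between the sides (horizontal); each point is a gene, mature myelin genes in purple have a median slope of 1.10 and ribosomal protein genes in green one of -0.14.

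Astrocyte and microglial genes were also called higher in myelin-rich libraries, with medians under those of the myelin lists. Of 14 astrocyte genes 12 were higher, with a median of 0.19, and 1 with both covariates. With identifier kind alone as a covariate 11 were higher, and 9 were in all-digit and 6 in E21DCD libraries. Mlc1, an astrocyte membrane protein at vessels, was higher by 0.38 ± 0.05 (limma adjusted p = 6.28e-10) and by 0.21 with both covariates (adjusted p = 0.0405). The water channel gene Aqp4 was higher by 0.24, Slc1a3 by 0.16 and Aldh1l1 by 0.13, and Slc1a2, the main glutamate transporter, at 0.10 did not pass (adjusted p = 0.0586). Of 11 genes listed for white matter astrocytes 7 were higher and 1 lower, among them Gfap, the intermediate filament of fibrous astrocytes, at 0.46 ± 0.08 and Fabp7 at 0.52 ± 0.08, neither of which was called with both covariates (0.21, adjusted p = 0.319, and 0.34, adjusted p = 0.0511).
Of 15 microglial genes 13 were higher, with a median of 0.26, and 0 with both covariates, where the median was 0.07. With identifier kind alone as a covariate 11 were higher, and 7 were in all-digit and 5 in E21DCD libraries. Tmem119 was higher by 0.33, Tyrobp by 0.38, Csf1r by 0.19 and Cx3cr1 by 0.20, and P2ry12 at 0.20 did not pass (adjusted p = 0.0823). Of 12 genes of activated microglia 9 were higher and 1 lower. The largest difference was that of Cd9, a membrane protein that oligodendrocytes also make, at 1.02 ± 0.07 (adjusted p = 3.14e-20) and at 0.67 with both covariates (adjusted p = 4.91e-08). Gpnmb was higher by 0.23, Axl by 0.23, Igf1 was lower by 0.25 on the log2 scale, and Lpl and Itgax, at -0.00 and 0.04, did not pass.

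In the iron and antioxidant list and the heat shock list the largest differences were in Car2 and Cryab, both also made by oligodendrocytes. The iron carrier gene Tf, with a larger difference of 1.53, is in neither list. Of 15 iron and antioxidant genes 11 were higher, with a median of 0.33, and 4 with both covariates (median 0.11). Car2, a carbonic anhydrase, was higher by 1.06 ± 0.07 (limma adjusted p = 1.19e-20), and by 0.80 with both covariates (adjusted p = 1.66e-08). The ferritin genes Fth1 and Ftl1 were higher by 0.48 and 0.40, and neither was called with both covariates (0.13, adjusted p = 0.236, and 0.11, adjusted p = 0.315). Of 14 heat shock genes 3 were higher and 4 lower, beside 26.9% and 25.2% of all genes tested. Cryab, a small heat shock protein, was higher by 0.81 ± 0.07, and by 0.55 with both covariates (adjusted p = 1.61e-05).

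Ribosomal protein genes were higher in 24 of 24 cases, with a median of 0.27 and a range of 0.16 to 0.45. Rplp1, a protein of the ribosomal stalk, was 8.05, 8.68 and 9.58 in myelin-rich and 7.70, 8.31 and 8.81 in myelin-poor libraries. Its sides overlapped, and the difference was 0.45 ± 0.07 (limma adjusted p = 2.29e-07). With identifier kind alone as a covariate 24 of 24 were higher (median 0.24). Inside the kinds 21 were higher in all-digit libraries (median 0.25) and 17 in E21DCD libraries (median 0.22). With both covariates 0 of 24 were called and the median was 0.04. In the middle libraries 0 of 24 were called and the median slope was -0.14. Of 22 nuclear genes of oxidative phosphorylation 16 were higher and 1 lower, with a median of 0.15, and 0 with both covariates (median -0.01). With identifier kind alone 12 were higher, and 6 were in all-digit and 8 in E21DCD libraries. Ndufb9 was higher by 0.28, Ndufa1 by 0.25 and Ndufa4 by 0.19, and Ndufs1 was lower by 0.11 on the log2 scale. Of 7 blood genes 6 were higher, with a median of 0.57, Hba-a1 by 0.59 ± 0.15 (adjusted p = 0.000442), and 0 with both covariates (median 0.02). Of 13 endothelial genes 8 were higher, with a median of 0.17, led by Mfsd2a at 0.36 and Cldn5 at 0.31, and 0 with both covariates. Of 12 mural genes 2 were higher, under the share of 26.9% over all genes tested. Of 12 meningeal fibroblast genes 6 were lower, beside 25.2% of all genes tested, with a median of -0.20. None of the 12 meningeal genes was called with identifier kind alone as a covariate. Inside the kinds their median was -0.23 in all-digit libraries, with 1 gene called lower, and 0.16 in E21DCD libraries, with 0 called. Of 4 ependymal genes tested 2 were higher, Foxj1 by 0.35 and Rarres2 by 0.26, and 0 with both covariates. Only these 4 of 11 listed genes with values reached the mean required. Foxj1 was low, with medians of 1.86 in myelin-rich and 1.60 in myelin-poor libraries. The part of Gad2 level, identifier kind and these cell types in one another's differences was not tested.

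The 15 largest falls among named genes with a mean of at least 3 ranged from -0.72 to -0.50. They were Mgam, Thsd7a, the activity-induced Npas4, Egr2 and Btg2, the glycine receptor gene Glra3, Gpc3, Ccbe1, Nos1, which makes nitric oxide in a class of interneurons, the Wnt receptor gene Fzd3, the NMDA receptor gene Grin2b, the calcium channel gene Cacna1e, Kctd16, the pacemaker channel gene Hcn4 and Slc7a14. Grin2b was 7.15, 8.44 and 9.09 in myelin-rich and 8.40, 8.93 and 9.17 in myelin-poor libraries, a difference of -0.53 ± 0.08 (limma adjusted p = 5.78e-08). The ranges overlapped, and the lowest myelin-rich libraries lay below all myelin-poor ones. With both covariates none of the 15 passed, the nearest being Mgam at -0.31 (adjusted p = 0.0626), and with identifier kind alone Npas4 and Btg2 did not (adjusted p = 0.0816 and 0.269). All 15 of the largest rises passed with both covariates.

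Genes of cortical layers were called in both directions, and differences between the layer lists were not tested. Of 12 genes of layers 2 to 4, which hold the upper projection neurons, 8 were lower and 2 higher, with a median of -0.28. Wfs1 was lower by 0.50 on the log2 scale, Rasgrf2 by 0.40, Calb1 by 0.36 and Cux2 by 0.34, whereas Cux1 was higher by 0.14 and Mdga1 by 0.16. None of these was called with both covariates, where the median was -0.09. Of 16 genes of layer 6 and the subplate, the deepest cortical neurons next to the white matter, 8 were higher and 0 lower, with a median of 0.14. Here 5 were called higher with both covariates, where the median was 0.22, namely Tle4, Nxph4, Cplx3, Sulf1 and Hs3st4, of which the last 3 were named after their values were seen. Nxph4, a secreted protein of subplate and deep-layer neurons, was 0.49, 2.46 and 3.20 in myelin-rich and 0.72, 1.67 and 2.61 in myelin-poor libraries. It differed by 0.78 ± 0.11 (limma adjusted p = 2.91e-08), by 0.71 with both covariates (adjusted p = 0.00387), by 0.69 in all-digit libraries (adjusted p = 0.0109) and by 0.70 in E21DCD libraries (adjusted p = 0.0114). Tle4, a corepressor of layer 6 neurons, was higher by 0.19 and by 0.24 with both covariates (adjusted p = 0.0168). Syt6 was higher by 0.34, Foxp2 at 0.12 and Ntsr1 at -0.20 did not pass. In the middle libraries none of the 16 was called, with a median slope of 0.18. Of 13 layer 5 genes 2 were higher and 4 lower, beside 26.9% and 25.2% of all genes tested, with Pcp4 at 0.54 and Parm1 at -0.35. With both covariates 1 was higher, Sulf1, which the layer 6 list also holds, and 0 lower, with Pcp4 at 0.18 (adjusted p = 0.349) and Parm1 at -0.10 (adjusted p = 0.496). Fezf2 and Bcl11b at -0.05 and 0.02 did not pass.

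Genes of other neurons were mixed. Of 12 glutamatergic genes 5 were lower, with a median of -0.06, and Slc17a7 and Camk2a at -0.05 and -0.04 did not pass. Of 16 interneuron genes 10 were lower and 2 higher, with a median of -0.14. Gad1 was lower by 0.20 on the log2 scale, Slc32a1 by 0.07 and Nos1 by 0.53, Pvalb was higher by 0.25, Sst at 0.10 did not pass, and none was called with both covariates, of which Gad2 is one. Of 11 genes of striatal projection neurons 6 were higher and 1 lower, and 4 were higher with both covariates. Inside the kinds 1 was higher in all-digit libraries (median 0.26). In E21DCD libraries, 6 of them myelin-rich, 8 were higher and 1 lower (median 0.33). Drd2, also a gene of striatal neurons, had an upper limit in the rule. It reached 4.65 in myelin-rich and 3.38 in myelin-poor libraries. Adora2a, the adenosine receptor of these cells, was 2.12, 2.78 and 5.12 in myelin-rich and 1.85, 2.27 and 3.17 in myelin-poor libraries, a difference of 0.62 ± 0.12 (limma adjusted p = 8.11e-06), and of 0.60 with both covariates (adjusted p = 0.0361). Penk was higher by 0.26 and Scn4b by 0.65, and Drd1 and Pdyn did not pass. In the middle libraries none of the list was called.

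Synaptic and activity genes were lower in part. Of 18 immediate early genes 14 were lower and 0 higher, with a median of -0.26. Npas4 was 3.18, 4.49 and 6.12 in myelin-rich and 3.14, 5.23 and 6.30 in myelin-poor libraries, Fos differed by -0.48 ± 0.14 (limma adjusted p = 0.00389), Fosb by -0.40, Junb by -0.35 and Fosl2 by -0.19. With both covariates none passed, although the median was -0.22, and in the middle libraries the median slope was 0.08. Of 16 presynaptic genes 8 were lower and 3 higher, with Pclo at -0.35, Syn2 at -0.25 and Rims1 at 0.23, and 0 were called with both covariates, where Rims1 was at -0.02. Of 15 postsynaptic density genes 10 were lower and 1 higher, with Lrrc7 at -0.43 and Homer3 at 0.36, and Homer3 alone was called with both covariates (0.22, adjusted p = 0.0109). Of 13 glucocorticoid-responsive genes 7 were higher, among them Sgk1 at 0.47, Tsc22d3 at 0.22 and Fkbp5 at 0.15, and none with both covariates. Of 15 clock genes 7 were lower, among them Bmal1 at -0.20 and Clock at -0.14, and none with both covariates. Of 11 reference genes 3 were higher and 2 lower, beside 26.9% and 25.2% of all genes tested. B2m was at 0.35 and Ywhaz at -0.12, and Gapdh and Actb at 0.00 and 0.05 did not pass.

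**Figure D4:**
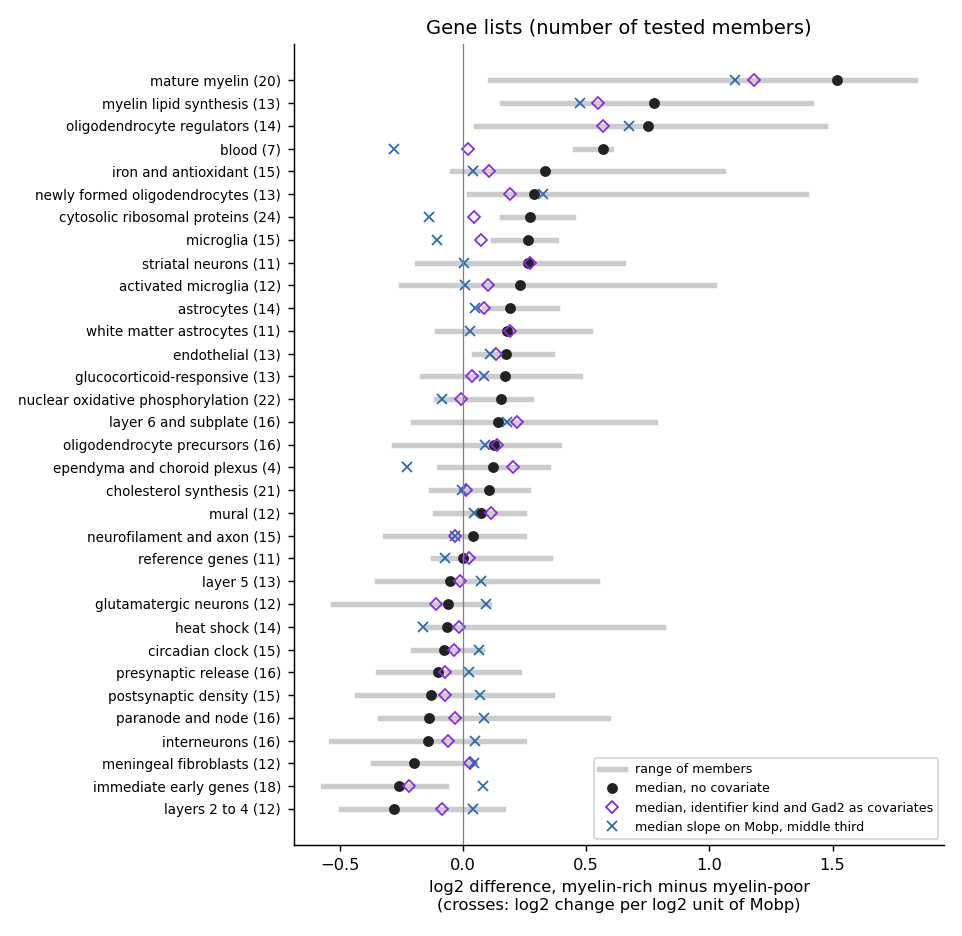
Median log2 difference, myelin-rich minus myelin-poor, of each gene list (black, with the range of its members in grey), the same with identifier kind and Gad2 as covariates (open diamonds), and the median slope on Mobp in the middle libraries (crosses, log2 change per log2 unit of Mobp). The mature myelin list has 1.52, 1.18 and 1.10, and the ribosomal protein list 0.27, 0.04 and -0.14.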

How the data were processed

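Per the labels, polyA RNA of the prelimbic cortex was sequenced in 164 samples, 34 of which have no column in the table and are not analysed here. Per the submitters' processing notes, kallisto 0.48 was used. The deposited unit is log2 of a value plus 1, not scaled to library size, and it was undone, each library was set to a sum of 1000000, and log2 of the result plus 1 was used. Tests were run on these log2 values, and methods for counts were not used. Positions matched RefSeq GRCr8, in which 38278 of 38354 symbols were found, and promoter sequences are RefSeq's for GRCr8. Sums per library ran from 16.9 to 54.5 in units of 1000000 counts on the sides.

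The libraries, gene lists and tests were chosen with earlier results of these data known. Mobp, Drd2 and Gad2, which the rule used, were left out of the tests, and genes with a mean of at least 1 entered. Genes were tested with limma 3.58.1 in R 4.3.3 (empirical Bayes with a mean trend, both directions, threshold of 0.05 on p-values adjusted by Benjamini and Hochberg). The fit was tested on simulated data with independent noise per gene and no part for identifier kind or Gad2. That test therefore does not cover genes that move together or the uneven identifier kinds. With 1 library per rat, p-values measure the spread between libraries. Named genes are the 15 called genes of mean 3 or more that rose most and the 15 that fell most, leaving out locus numbers, and, per list with at least 4 tested members, the first 4 tested and the largest called change in each direction; the genes named after their values were seen are outside that rule, as are Myrf and the genes of the difference between identifier kinds. Side measures were compared with 100000 permutations. Python 3.11.15, numpy 2.4.6, pandas 2.3.3, scipy 1.17.1 and matplotlib 3.10.9 were used. Alternatives were other scalings, filters, pseudocounts, cuts, rank genes and covariates. A few genes of the lists are not reported here by name.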

Additional observations from a re-analysis of the deposited data

Results flagged for a closer look

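Among the 9 all-digit libraries of the myelin-poor side, replicate 46 had the lowest Mobp and Mbp, at 7.62 and 9.35. It stood apart in Mog, at 4.05 against 4.66 to 5.12. Such values were looked for in 9 sets of 4 to 10 libraries, not in Mobp, which sorted them, and chance flags about 1 in 20.

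In 4 genes the difference between the sides differed between the identifier kinds (limma interaction, all-digit minus E21DCD, 15147 genes tested). They were named after their values were seen. Gtf2h4, a subunit of a general transcription factor, was at -0.14 in all-digit and 0.28 in E21DCD libraries, an interaction of -0.42 ± 0.08 (adjusted p = 0.0295). Tmem101 was at 0.02 in all-digit and 0.33 in E21DCD libraries (-0.31 ± 0.06, adjusted p = 0.0295). The mitochondrial carrier gene Slc25a29 was at 0.00 in all-digit and 0.38 in E21DCD libraries (-0.38 ± 0.08, adjusted p = 0.0336), and the endocytic gene Sh3gl1 at -0.04 in all-digit and 0.27 in E21DCD libraries (-0.31 ± 0.06, adjusted p = 0.0336). The E21DCD values rest on 6 myelin-rich libraries.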

How the results depend on the processing

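Of 18 alternatives to the comparison of the sides, 16 gave counts within 1.5 times those reported, with 3132 to 4355 genes higher and 2899 to 4591 lower. The others were chosen after seeing the data: with Gad2 as a covariate 1332 genes were higher and 619 lower, and with identifier kind and Gad2 545 and 42. Covariates for genes above 0 and Xist, and leaving out the 7 libraries of highest Mobp, were also added then and are among the 16. Ranking inside each kind gave 2748 higher and 3213 lower among all-digit libraries, and 1381 and 903 among E21DCD libraries, with 18 libraries per side in place of 31 against 9 and 6 against 28. In the middle libraries 2 genes fell with Mobp, 4 with Mog in its place and 4 with Gad2 as a covariate. The cause of these changes was not tested.

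Of 188 named genes, 147 passed, and under identifier kind and Gad2 as covariates 101 of them lost the call with the same sign and 11 changed sign without passing: Cspg5 (-0.004), Pmvk (-0.0414), Nefh (-0.0808), Hbb-b1 (-0.107), Pvalb (-0.144), Rims1 (-0.0204), Rpl5 (-0.0041), Rplp1 (-0.0179), Ndufa1 (-0.0104), Ndufb3 (-0.0594) and Ndufb9 (-0.0013). With Gad2 alone Slc38a1 changed sign, to 0.0004. No paired analysis was run, because the labels give no pairs of libraries. The replicate numbers used here were assigned to tell libraries apart and are not in the labels. Median-of-ratios scaling changed the majority direction in the comparison of the sides (3853 higher, 4185 lower), among all-digit libraries (1440 and 1478) and among E21DCD libraries (1998 and 2514). Summed counts on the sides varied from 16.9 to 54.5 in units of 1000000, which limits the lowest genes most.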

Other observations

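In 1 of the middle libraries, E21DCD replicate 15, Xist was at 7.61 and the Y-linked genes Ddx3y at 5.71, Eif2s3y at 5.12 and Kdm5d at 4.19. It had the highest sum of the 130 libraries, 55.95 in units of 1000000 counts. Without it the middle libraries again gave 102 genes rising and 2 falling with Mobp. No library of either side had both Xist and Y-linked transcripts above the levels counted, 5 for Xist and 3 for Ddx3y.

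Among the 42 genes called lower with both covariates were the kinase genes Prkg2 at -0.35 and Camk4 at -0.21, the transcription factor genes Grhl1 at -0.28 and Bhlhe40 at -0.22, and the neuronal adhesion gene Lsamp at -0.19, all named after their values were seen. Of the 42, 29 (69%) also had a negative slope in the middle libraries, where 56.7% of all genes did.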
